A study of Mus musculus with 8 samples.

Results

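The genes of transforming growth factor beta (TGF-beta), bone morphogenetic protein (BMP) and activin signalling were examined in RNA sequencing counts from mouse embryonic fibroblasts, which are matrix-producing mesenchymal cells. The set held the 53 genes of 12211 in the deposited table whose symbols name a ligand, latency protein, antagonist, receptor, Smad, Smad regulator or Id protein of these pathways. Membership went by symbol alone, so it also takes in Bmp2k, a kinase that is not part of a receptor complex, and Bmp1, a metalloproteinase. There were 4 control libraries, whose genotype is labelled WT, and 4 PUS10KO libraries, numbered 1 to 4 in each genotype. The PUS10 protein converts uridine in RNA to pseudouridine. All the cells were grown in medium with fetal bovine serum, which carries ligands of its own. How the gene was disrupted, and whether the libraries of a genotype came from separate cultures, embryos or clones, is stated by no source used here, so each p-value reflects the spread among these libraries alone, which may be technical.

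TGF-beta, activin and BMP ligands are secreted dimers that bring together type I and type II receptor kinases. The type I receptor then phosphorylates Smad proteins: Smad2 and Smad3 after TGF-beta and activin, and Smad1, Smad5 and Smad9 after BMP. With the shared partner Smad4 these enter the nucleus, where they switch on matrix and contractile genes or Id genes, and also their own inhibitors. In fibroblasts TGF-beta is known for driving matrix production and conversion to contractile myofibroblasts. Latency proteins hold TGF-beta in the matrix until it is released, and secreted antagonists bind BMP or activin outside the cell.

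Total counts per library ran from 17561114 to 24563499. Of the 11909 genes tested with edgeR's quasi-likelihood test 13.0% were called, meaning an adjusted p under 0.05, with 5.90% that rose and 7.11% that fell in PUS10KO. Pus10 itself fell from 46.1 ± 6.46 to 13.8 ± 1.60 CPM (CPM, the count scaled to the TMM-adjusted library total, as mean ± SD, n = 4 each, adjusted p = 0.000189). The genotypes also differed in sex chromosome content, with 0 to 2 counts of each of Eif2s3y, Uty and Kdm5d in any control library and at least 722 in every PUS10KO library. Genotype and sex chromosomes therefore cannot be told apart in these libraries. Of 10 fibroblast markers all were detected and 6 fell (Col1a2, Pdgfrb, Vim, Twist1, Prrx1 and Thy1), and 0 rose, with a summed level of 16740 to 20930 CPM in control and 10411 to 15707 CPM in PUS10KO. Among them Thy1, a surface marker of many fibroblasts, stood at 21.8 ± 0.92 CPM in control and 0.024 ± 0.028 CPM in PUS10KO. Pdgfra, a receptor gene of the same list, had 49.8 ± 20.7 and 101 ± 21.1 CPM (log2 fold change 1.02, adjusted p = 0.0605). Macrophage markers with a row (Csf1r and Cd68) summed to 2.63 to 6.62 CPM in control and 2.15 to 5.45 CPM in PUS10KO. Endothelial markers (Kdr and Tek) summed to 2.52 to 4.92 and 1.19 to 3.12 CPM. The part of these marker changes in the results below was not tested, and in bulk libraries fewer cells of a type and less RNA per cell cannot be told apart.

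All 53 members had enough counts to be tested, and 50 had at least 10 counts in every library. Of these 53, edgeR called 4 as higher and 6 as lower, leaving 43 that missed the threshold. The 10 called members were 18.9% of the set, against 13.0% of all genes tested. Of the 10, Lefty1 passed the count filter only through its control libraries, and Acvrl1 would not have passed without its PUS10KO libraries. Both also count among the members without overlap given below, so neither share is read as a result about the set. The median log2 fold change of the members was -0.16, and that of all genes tested was 0.01. In PUS10KO the coreceptor gene Tgfbr3, the receptor gene Acvrl1, the BMP antagonist gene Grem1 and the ligand gene Gdf5 were higher. The ligand genes Tgfb3 and Bmp4, the latency gene Ltbp1, the antagonist genes Lefty1 and Fstl3 and the receptor gene Acvr2a were lower. In this fit called genes lay among the ligands, antagonists, latency proteins and receptors, and no Smad, Smad inhibitor or Id gene was called. Other fits described below did call Smad7, Skil, Id2 and Id3. Whether calls were spread unevenly over the roles was not tested. Where 13.0% of all genes tested were called, a role of 6 or 4 genes can hold 0 calls without differing from other genes. For 13 members (24.5%) the 4 control and 4 PUS10KO values did not overlap, as for 20.3% of all genes tested.

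Libraries of the same number varied together in both genotypes, so a second fit took the number as a block. With that replicate block 8 members rose and 17 fell, 47.2% of the set, where 39.0% of all genes tested were called (19.1% rose and 19.9% fell). All 10 members called without the block were among these 25. By DESeq2 5 members rose and 10 fell, where 9.09% and 10.4% of all genes tested did so (19.4% together). By limma voom 4 rose and 4 fell, where 5.87% and 6.84% did so (12.7% together). Leaving out 1 library left 10.9%, 10.8%, 9.49% and 11.1% of all genes called for control 1 to 4, and 10.8%, 9.23%, 8.46% and 10.2% for PUS10KO 1 to 4. Of the members 11 were higher and 22 lower in PUS10KO in all 4 numbers, and 55.3% of all genes tested had 1 sign in all 4. The calls added by the block were Fst, Ltbp2, Tgfbr2 and Acvr1b, which rose, and Tgfb2, Inhba, Chrdl1, Fstl1, Bmpr1b, Bambi, Bmpr2, Skil, Smad7, Id2 and Id3, which fell.

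**Figure D1:**
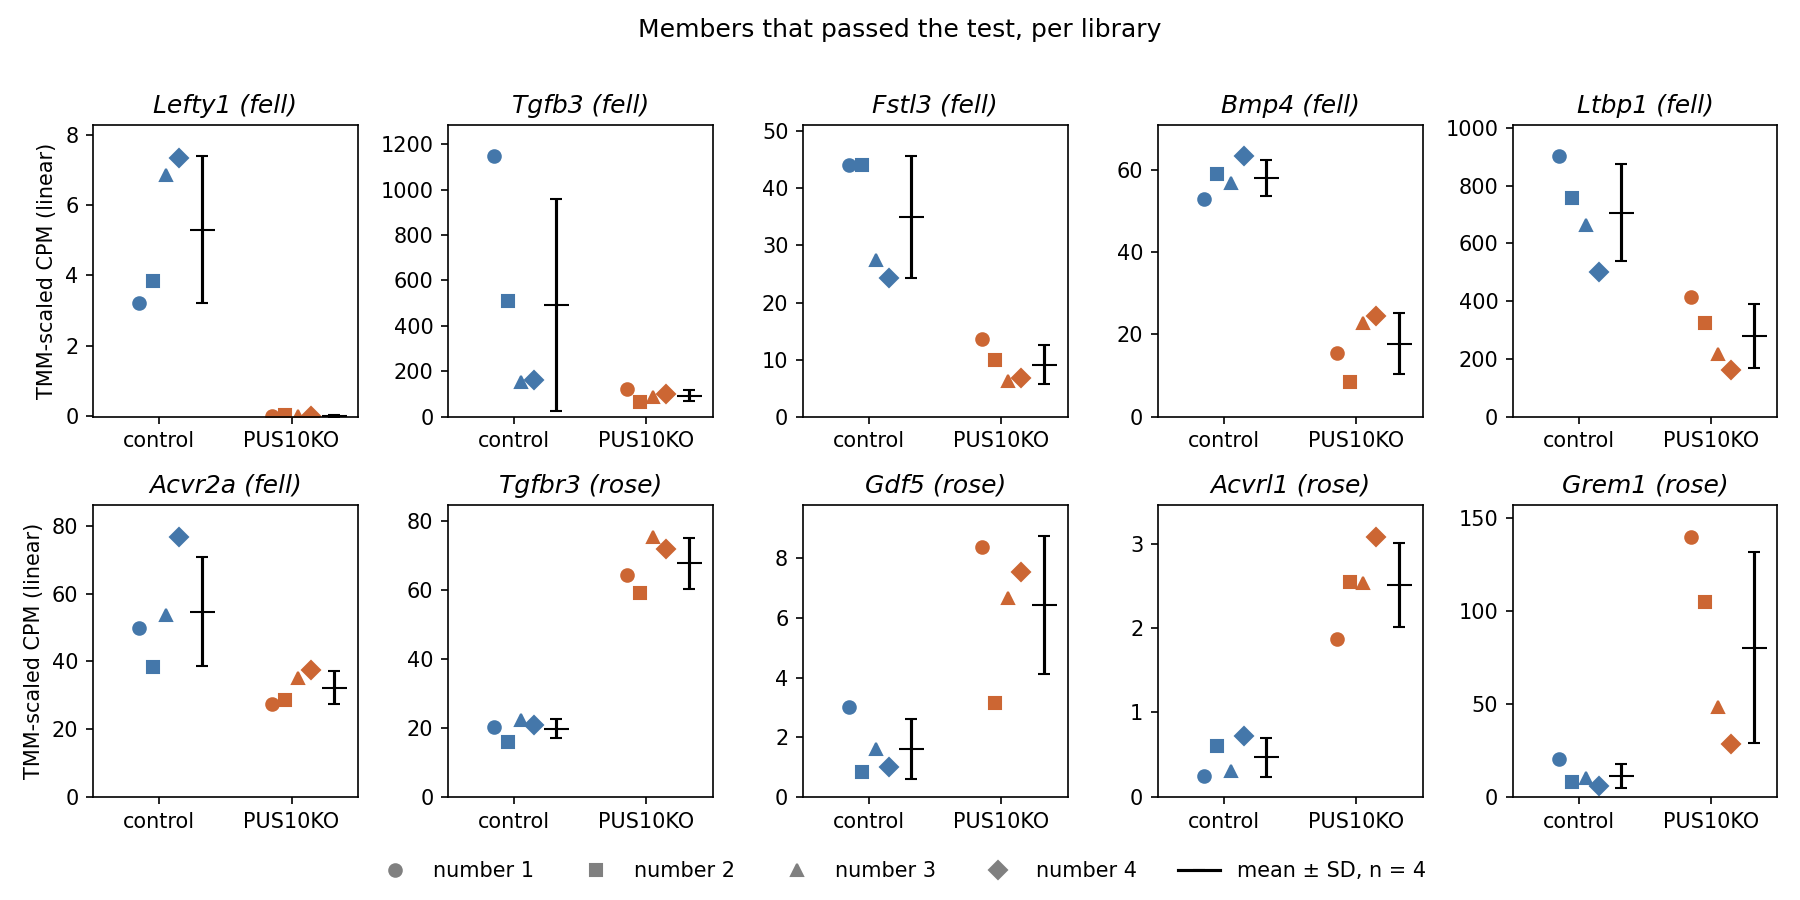
TMM-scaled CPM (vertical, linear) in each control (blue) and PUS10KO (orange) library for the 10 members called by edgeR, with marker shape for the library number and black bars for mean ± SD (n = 4). In none of the 10 panels do the values of the genotypes overlap, and Tgfb3 shows the widest spread in control.

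Among the 10 ligands 1 gene rose and 2 fell, where 5.90% and 7.11% of all genes tested did so. Tgfb3, which encodes a TGF-beta isoform, lies on chromosome 12 (86056745 to 86079041, minus strand, GRCm38). In control its values were 1147, 509, 152 and 159.8 CPM for numbers 1 to 4, and in PUS10KO they were 121, 62.9, 87.6 and 99.3 CPM. All PUS10KO values were below all control values, and the control libraries themselves fell into a high pair (1 and 2) and a low pair (3 and 4). This gave a log2 fold change of -2.41 (SE 0.64, adjusted p = 0.0376). Between libraries of the same number the log2 difference was -3.24, -3.01, -0.80 and -0.69, so the size of the fall depended on which control it was set against. Whether these differences differ from each other was not tested. Dropping 1 library at a time ended this call in 6 of 8 fits and kept it only without control 3 or without control 4 (adjusted p up to 0.1001, log2 fold change -2.70 to -1.55). Limma voom did not call it (adjusted p = 0.0669). Chromosome 12 as a whole had a median log2 fold change of -0.60, and relative to it Tgfb3 was at -1.80.

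The other TGF-beta isoforms also had lower means without passing edgeR's test of genotype alone. Tgfb2 had 36.2, 24.9, 19.8 and 25.0 CPM in control and 10.7, 9.55, 17.6 and 21.3 CPM in PUS10KO. The gap was wide between libraries numbered 1 and 2 (log2 difference -1.75 and -1.37) and narrow between those numbered 3 and 4 (-0.17 and -0.23), the same split as in Tgfb3. Its log2 fold change was -0.84 (adjusted p = 0.101, and 0.0319 under the replicate block or 0.0419 by DESeq2). Tgfb1, the isoform most studied in fibrosis, had 8.47, 6.68, 6.70 and 3.93 CPM in control and 5.12, 5.05, 4.69 and 4.11 CPM in PUS10KO, which overlapped (log2 fold change -0.44, adjusted p = 0.305).

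Bmp4, a BMP ligand that patterns mesoderm and skin mesenchyme, showed a more even fall. It lies on chromosome 14 (46383520 to 46390669, minus strand) and had 52.9, 58.9, 56.8 and 63.3 CPM in control and 15.4, 8.39, 22.7 and 24.6 CPM in PUS10KO. The highest PUS10KO library held less than every control library. Its log2 fold change was -1.71 (SE 0.30, adjusted p = 0.00606), and the gene was called in all 8 fits that left out 1 library. Gdf5, a ligand of joint-forming mesenchyme, moved the other way, from 3.02, 0.82, 1.60 and 1.01 CPM in control to 8.37, 3.14, 6.67 and 7.52 CPM in PUS10KO. The groups were parted by a small gap only, between control 1 and PUS10KO 2. Gdf5 (chromosome 2, 155941023 to 155945367, minus strand) showed a log2 fold change of 1.99 (SE 0.47, adjusted p = 0.024). Its call held in 2 of 8 fits that left out 1 library, with control 1 or else PUS10KO 2 removed (adjusted p up to 0.0638), and with the block its adjusted p was 0.000395.

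Inhba encodes the subunit of activin A. It had 439, 179, 55.8 and 43.3 CPM in control and 275, 158, 48.2 and 36.1 CPM in PUS10KO. PUS10KO was lower in all 4 numbers, by 0.67, 0.18, 0.21 and 0.26 on the log2 scale, while the spread between numbers was far wider than that. Its log2 fold change of -0.47 did not pass the test (adjusted p = 0.773), did so with the block (-0.33, adjusted p = 0.0305), and turned to 0.50 without control 1. Inhbb, the subunit of activin B, showed a log2 fold change of -0.61 (adjusted p = 0.486). The remaining ligands Bmp6, Gdf11 and Gdf15 had log2 fold changes of 0.01, 0.31 and 0.22. Gdf15, a stress-induced ligand, had 0.34, 1.59, 1.24 and 0.81 CPM in control and 0.83, 1.51, 1.39 and 0.87 CPM in PUS10KO, from at most 38 counts in a library, so differences of small size were not detectable at this depth.

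Of the latency and processing genes 1 fell and 4 did not pass, where 7.11% of all genes tested fell. Ltbp1, which tethers latent TGF-beta to the matrix, lies on chromosome 17 (75005568 to 75392512, plus strand). It had 902, 757, 664 and 502 CPM in control and 413, 324, 217 and 163 CPM in PUS10KO. Every PUS10KO library was below every control library, and both genotypes had their highest value in number 1 and their lowest in number 4. Ltbp1 showed a log2 fold change of -1.34 (SE 0.30, adjusted p = 0.0202, or 0.0624 without PUS10KO 3). Ltbp2, a relative that does not bind latent TGF-beta, had 200.3, 134, 72.9 and 48.7 CPM in control and 437, 237, 153 and 135 CPM in PUS10KO. Its values overlapped between genotypes but were higher in PUS10KO in all 4 numbers, by 1.13, 0.82, 1.07 and 1.46 on the log2 scale. It stood at a log2 fold change of 1.08, with adjusted p = 0.214 (and 0.000134 under the block). It lies on chromosome 12, and relative to the median of that chromosome its log2 fold change was 1.68. Ltbp3, Ltbp4 and the procollagen protease gene Bmp1 had log2 fold changes of -0.41, -0.55 and -0.19 (adjusted p = 0.179, 0.291 and 0.507).

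The secreted antagonists changed in opposite directions, with 1 of 8 called as higher and 2 as lower. Of all genes tested 5.90% rose and 7.11% fell. Grem1, which encodes gremlin 1, an antagonist that binds BMP2, BMP4 and BMP7, lies on chromosome 2 (113746164 to 113758646, minus strand) and had the largest rise of the set by fitted fold change. It had 20.5, 8.10, 10.3 and 5.89 CPM in control and 139.9, 105, 48.0 and 28.2 CPM in PUS10KO. The lowest PUS10KO library (number 4) was above the highest control library (number 1). The log2 fold change of Grem1 was 2.84 (SE 0.57, adjusted p = 0.0117), a 7.16-fold difference, and it was called in all 8 fits that left out 1 library. Fstl3, a follistatin relative that binds activin and myostatin, on chromosome 10 (79777272 to 79782630, plus strand), had 44.1, 44.1, 27.4 and 24.2 CPM in control and 13.6, 9.94, 6.16 and 6.82 CPM in PUS10KO. Fstl3 was thus lower in all 4 numbers by a similar amount (log2 difference -1.70, -2.14, -2.13 and -1.81). Its log2 fold change was -1.94 (SE 0.31, adjusted p = 0.00407), called in all 8 fits that left out 1 library.

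Lefty1, a secreted inhibitor of nodal signalling on chromosome 1 (180935022 to 180938400, plus strand), had 3.21, 3.83, 6.85 and 7.33 CPM in control. In PUS10KO it had 1 count in library 2 and 0 in the others, against 422 counts over the control libraries. The ratio of control to PUS10KO was 456 (exact 95% counting interval 81.4 to 18047, which covers counting error only). The adjusted p of Lefty1 was 0.000163, and its fitted log2 fold change depends on the prior count and is not a bound. Msx1, a BMP-responsive gene described further on, had the reverse pattern, with 0 counts in control.

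The other antagonists did not pass edgeR's test without the block. DESeq2, fitted without a block, did call Fst (adjusted p = 0.0119), Fstl1 (adjusted p = 0.0165) and Chrdl1 (adjusted p = 0.0259). Fst encodes follistatin, which binds activin, and had 108, 63.1, 23.0 and 24.9 CPM in control and 323, 164, 108 and 106 CPM in PUS10KO. Control 1 reached the level of the lower PUS10KO libraries, so the groups overlapped, but within each number PUS10KO was higher by 1.38 to 2.23 on the log2 scale. The log2 fold change of Fst was 1.68 (adjusted p = 0.0904), and with the replicate block it was 1.81 (adjusted p = 5.25e-05). Fst and Fstl3 therefore differed in sign under the block, Fstl3 being at -1.96 (adjusted p = 1.26e-05). Fstl1, a follistatin-like glycoprotein and by far the most abundant of the group, had 2507, 1609.5, 1803 and 2133 CPM in control and 1496, 1267, 1344 and 1501 CPM in PUS10KO (log2 fold change -0.52, adjusted p = 0.072, and 0.00288 under the block). The values of Fstl1 did not overlap between genotypes. Chrdl1, a chordin-like BMP antagonist, had 2.95 ± 1.76 and 0.99 ± 0.50 CPM (log2 fold change -1.57, adjusted p = 0.0863, and 0.0168 under the block).

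Nog, which encodes the BMP antagonist noggin, had 8.27, 3.39, 1.18 and 0.77 CPM in control and 9.03, 3.94, 3.00 and 2.87 CPM in PUS10KO (log2 fold change 0.46, adjusted p = 0.737, and 0.0835 under the block). Its values overlapped between genotypes, with the highest in number 1 of each.

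The sequences just upstream of Grem1, Fstl3 and Bmp4 are shown because these called genes encode antagonists and a ligand that were called in all 8 fits that left out 1 library. Lefty1 was called in all 8 as well and has no entry in the table used. Each has a single start in the RefSeq promoter table (GRCm38.p6), which held an entry for 37 of the 53 members. Each run is the 250 bases before the start, 5' to 3' on the strand of the gene. Capitals mark CAGAC or its complement GTCTG, the short element bound by Smad3 and Smad4, and GGCGCC, a GC-rich element also bound by Smads, which reads the same on both strands and does not overlap the former.
Grem1 (chr2:113758649-113758898, minus strand): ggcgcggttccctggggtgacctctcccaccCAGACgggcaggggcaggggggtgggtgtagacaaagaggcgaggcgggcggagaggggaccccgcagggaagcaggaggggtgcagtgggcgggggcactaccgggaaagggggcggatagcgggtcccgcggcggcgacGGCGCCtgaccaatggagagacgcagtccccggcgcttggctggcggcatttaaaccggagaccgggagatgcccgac
Fstl3 (chr10:79777024-79777273, plus strand): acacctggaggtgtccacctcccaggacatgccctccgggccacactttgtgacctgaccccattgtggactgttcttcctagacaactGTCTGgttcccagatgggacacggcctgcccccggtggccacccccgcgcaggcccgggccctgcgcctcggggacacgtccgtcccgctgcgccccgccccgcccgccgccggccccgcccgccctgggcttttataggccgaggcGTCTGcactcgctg
Bmp4 (chr14:46390670-46390919, minus strand): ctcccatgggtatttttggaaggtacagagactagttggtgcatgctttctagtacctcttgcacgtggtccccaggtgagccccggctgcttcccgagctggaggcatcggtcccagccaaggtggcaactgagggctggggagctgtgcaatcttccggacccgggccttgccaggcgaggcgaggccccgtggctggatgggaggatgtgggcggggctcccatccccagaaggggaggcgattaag
The Grem1 window held 1 match of the first element and 1 of the second, the Fstl3 window 2 and 0, and the Bmp4 window 0 and 0. Of all 32851 windows of this length, 42.2% held CAGAC or GTCTG and 9.59% held GGCGCC. The windows were GC-rich, at 72.0%, 71.2% and 63.2% G or C. A match is a run of letters and was not tested for binding.

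Of 13 receptor genes and receptor-associated genes 2 rose, 1 fell and 10 did not pass, where 5.90% of all genes tested rose and 7.11% fell. Tgfbr3 encodes betaglycan, a coreceptor that presents TGF-beta2 and inhibin, and lies on chromosome 5 (107106570 to 107289629, minus strand). It had 20.1, 16.0, 22.3 and 21.0 CPM in control and 64.4, 59.2, 75.6 and 72.0 CPM in PUS10KO. The log2 difference was 1.67, 1.88, 1.76 and 1.77 for numbers 1 to 4, which is nearly the same in every number. Tgfbr3 showed a log2 fold change of 1.77 (SE 0.14, adjusted p = 0.000163), a 3.41-fold difference, and was called in all 8 fits that left out 1 library.

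Acvrl1, which encodes ALK1, a type I receptor for BMP9 and BMP10 known from endothelium, rose from a low level. It had 0.24, 0.60, 0.31 and 0.72 CPM in control and 1.87, 2.55, 2.53 and 3.08 CPM in PUS10KO, from 37 and 215 counts over the genotypes. The lowest PUS10KO library was above the highest control library. Acvrl1 (chromosome 15, 101128522 to 101145336, plus strand) showed a log2 fold change of 2.41 (SE 0.39, adjusted p = 0.00398), called in all 8 fits that left out 1 library. Of the endothelial markers neither Kdr nor Tek was called, and their sums are given above. Acvr1b, its neighbour on the chromosome and an activin type I receptor gene, stood at a log2 fold change of 0.41, with adjusted p = 0.259 (and 0.029 under the block).

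Acvr2a, an activin type II receptor gene on chromosome 2 (48814109 to 48903269, plus strand), had 49.9, 38.4, 53.6 and 76.9 CPM in control and 27.4, 28.7, 35.2 and 37.4 CPM in PUS10KO. The groups were parted by a narrow gap, between control 2 and PUS10KO 4. Acvr2a showed a log2 fold change of -0.77 (SE 0.21, adjusted p = 0.0479). Dropping 1 library at a time kept this call in 1 of 8 fits, the fit without control 2 (adjusted p up to 0.121). It was also lost in edgeR with DESeq2's size factors (adjusted p = 0.050004) and by limma voom (adjusted p = 0.0569). DESeq2's own test called Acvr2a (adjusted p = 0.0108), as did edgeR with the block (adjusted p = 0.00153). Its relative Acvr2b, at 1.23 ± 0.20 and 1.08 ± 0.27 CPM, showed a log2 fold change of -0.19 (adjusted p = 0.740).

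The TGF-beta receptor kinases did not pass the test. Tgfbr2, the type II receptor gene, had 128, 65.4, 97.9 and 95.7 CPM in control and 151, 105, 165 and 195 CPM in PUS10KO. It was higher in all 4 numbers, by 0.24 to 1.03 on the log2 scale, but control 1 stood above PUS10KO 2. Tgfbr2 stood at a log2 fold change of 0.67, with adjusted p = 0.106 (and 0.00329 under the block). Tgfbr1, the type I receptor gene, had 63.9, 57.2, 42.0 and 61.0 CPM in control and 70.6, 76.8, 47.6 and 56.2 CPM in PUS10KO (log2 fold change 0.17, 95% interval -0.27 to 0.60).

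Among the BMP receptors the type II receptor gene Bmpr2 had 130.0, 72.6, 67.7 and 66.3 CPM in control and 62.3, 59.5, 52.5 and 61.5 CPM in PUS10KO. The groups did not overlap, and control 1 stood well above the rest. Bmpr2 stood at a log2 fold change of -0.51, with adjusted p = 0.184 (and 0.0402 under the block). Bmpr1a, the most abundant receptor per length, had 203, 178, 169.6 and 222 CPM in control and 189.7, 217, 205 and 210.3 CPM in PUS10KO (log2 fold change 0.09, 95% interval -0.18 to 0.37). Acvr1, which encodes ALK2, had 29.6, 24.6, 29.9 and 26.2 CPM and 25.3, 30.7, 26.1 and 32.5 CPM (0.06, 95% interval -0.25 to 0.36). The intervals of Bmpr1a and Acvr1 leave out a 2-fold change in either direction. Bmpr1b had 6.78 ± 4.70 and 3.21 ± 2.48 CPM (log2 fold change -1.08, adjusted p = 0.291, and 0.00259 under the block), and Bambi, a decoy receptor without a kinase, had 17.3 ± 6.63 and 11.0 ± 2.02 CPM (-0.65, adjusted p = 0.160, and 0.0171 under the block). Tgfbrap1, a receptor-associated protein gene, had -0.28 (adjusted p = 0.237).

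**Figure D2:**
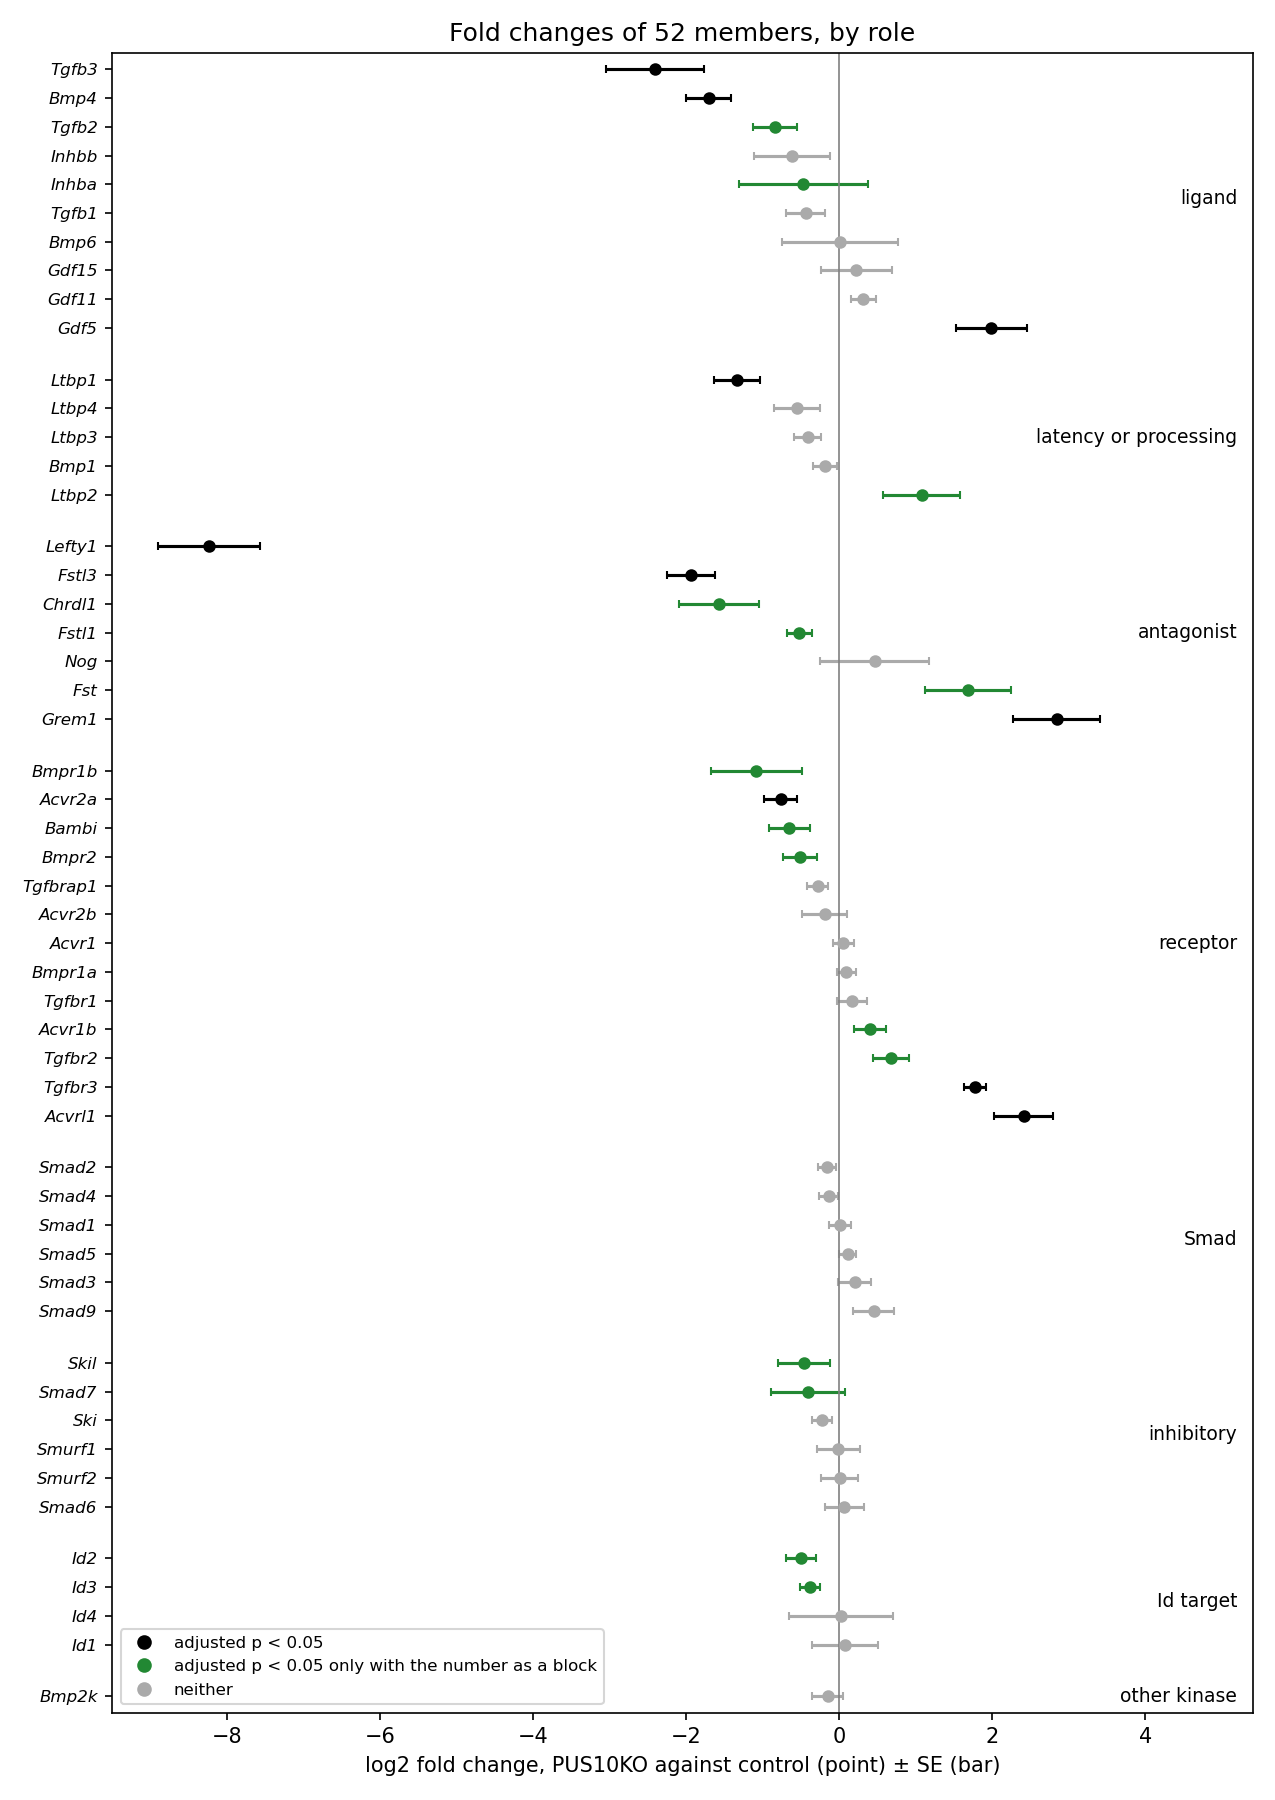
Fitted log2 fold change of PUS10KO against control (horizontal, bars ± SE) for 52 members, grouped by role; black marks an adjusted p under 0.05, green one reached only with the library number as a block, grey neither. The Smads lie between -0.16 and 0.45, while ligands, antagonists and receptors spread to both sides; the value of Lefty1 depends on the prior count.

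None of the 6 signal-carrying Smad genes was called, by edgeR with or without the block, by DESeq2 or by limma voom, and none had an unadjusted p under 0.05 in edgeR. Without the block edgeR called 13.0% of all genes tested, so 0 calls among 6 genes do not set the Smads apart. Smad2 had 101, 104, 89.0 and 95.7 CPM in control and 99.0, 92.4, 80.1 and 77.0 CPM in PUS10KO (log2 fold change -0.16, 95% interval -0.44 to 0.11). Smad3 had 55.0, 102, 74.0 and 59.2 CPM and 73.3, 103, 76.4 and 81.4 CPM (0.20, 95% interval -0.28 to 0.68). Smad4 had 99.4, 121, 95.4 and 90.0 CPM and 92.7, 102, 87.4 and 87.4 CPM (-0.14, 95% interval -0.42 to 0.15). For these genes of the TGF-beta and activin branch the genotypes overlapped. On the BMP branch Smad1 had 65.4, 56.7, 48.7 and 57.7 CPM in control and 66.7, 62.9, 49.6 and 50.5 CPM in PUS10KO (0.01, 95% interval -0.32 to 0.34). Smad5 had 85.5, 91.6, 99.0 and 105 CPM and 91.7, 105, 109 and 104 CPM (0.11, 95% interval -0.15 to 0.37). Smad9, the least abundant of them, had 10.3 ± 2.93 and 14.1 ± 4.20 CPM (0.45, 95% interval -0.15 to 1.06). The intervals left out a 2-fold change for each of these except Smad9. Messenger levels do not show how much of these proteins was phosphorylated.

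The inhibitors of Smad signalling did not pass the test without the block either, with 0 of 6 called by edgeR, DESeq2 or limma voom and 0 at an unadjusted p under 0.05. Here too the count of 0 stands beside the 13.0% of all genes tested that edgeR called. Smad7, an inhibitory Smad that TGF-beta itself induces, had 77.6, 75.4, 37.0 and 28.1 CPM in control and 71.0, 51.7, 21.1 and 20.8 CPM in PUS10KO. It was lower in PUS10KO in all 4 numbers, by 0.13, 0.54, 0.81 and 0.43 on the log2 scale, and both genotypes were higher in numbers 1 and 2. The log2 fold change of Smad7 was -0.41 (adjusted p = 0.650), and with the block -0.48 (adjusted p = 0.0128). Skil, which encodes the TGF-beta-induced corepressor SnoN, had 133 ± 35.1 and 96.5 ± 44.0 CPM (-0.46, adjusted p = 0.445, and 0.00934 under the block). Smad6, which inhibits the BMP branch, had 88.7, 47.3, 59.1 and 61.4 CPM in control and 101, 60.7, 51.0 and 56.8 CPM in PUS10KO (0.07, adjusted p = 0.903). Ski and the ubiquitin ligase genes Smurf1 and Smurf2 had log2 fold changes of -0.23, -0.01 and 0.00 (adjusted p = 0.300, 0.989 and 0.996).

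The Id genes, which encode helix-loop-helix inhibitors and are direct targets of BMP Smads, included 0 that were called by edgeR, with 2 at an unadjusted p under 0.05, 1 called by DESeq2 and 0 by limma voom. There were only 4 Id genes, and edgeR called 13.0% of all genes tested. Id1 had 209, 179, 95.3 and 92.9 CPM in control and 246, 198, 87.5 and 74.0 CPM in PUS10KO. PUS10KO was higher in numbers 1 and 2 and lower in numbers 3 and 4, with a log2 fold change of 0.07 (adjusted p = 0.942) that turned to -0.01 with the block. Id3 had 232, 213, 239 and 290.4 CPM in control and 213, 187, 176 and 173 CPM in PUS10KO (-0.38, adjusted p = 0.103, and 0.0294 under the block or 0.0458 by DESeq2). The values of Id3 overlapped narrowly, since control 2 and PUS10KO 1 were nearly equal. Id2 had 71.6, 43.1, 49.0 and 54.0 CPM and 49.1, 38.5, 35.5 and 30.8 CPM (-0.50, adjusted p = 0.144, and 0.00895 under the block). Id2 lies on chromosome 12, and relative to the median of that chromosome its log2 fold change was 0.10. Id4 had 0.02 (adjusted p = 0.989), and the kinase gene Bmp2k -0.15 (adjusted p = 0.696).

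Several members varied strongly between library numbers. For 9 members (17.0%) the mean log2 CPM of libraries 1 and 2 was more than 1 above that of libraries 3 and 4 in both genotypes, as for 2.03% of all genes tested. No member was lower by that much in both, as 3.33% of all genes tested were. They included the ligand genes Inhba and Bmp6, the antagonist genes Nog and Fst, the latency relative Ltbp2, and the target genes Smad7, Id1 and Id4. The difference between numbers was 2.51 in control and 2.32 in PUS10KO for Inhba. For Smad7 it was 1.24 and 1.53, and for Id1 1.04 and 1.45. The labels do not say what a number shares, so these are values of the libraries and not of a condition, and this division was chosen after the counts had been seen.

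**Figure D3:**
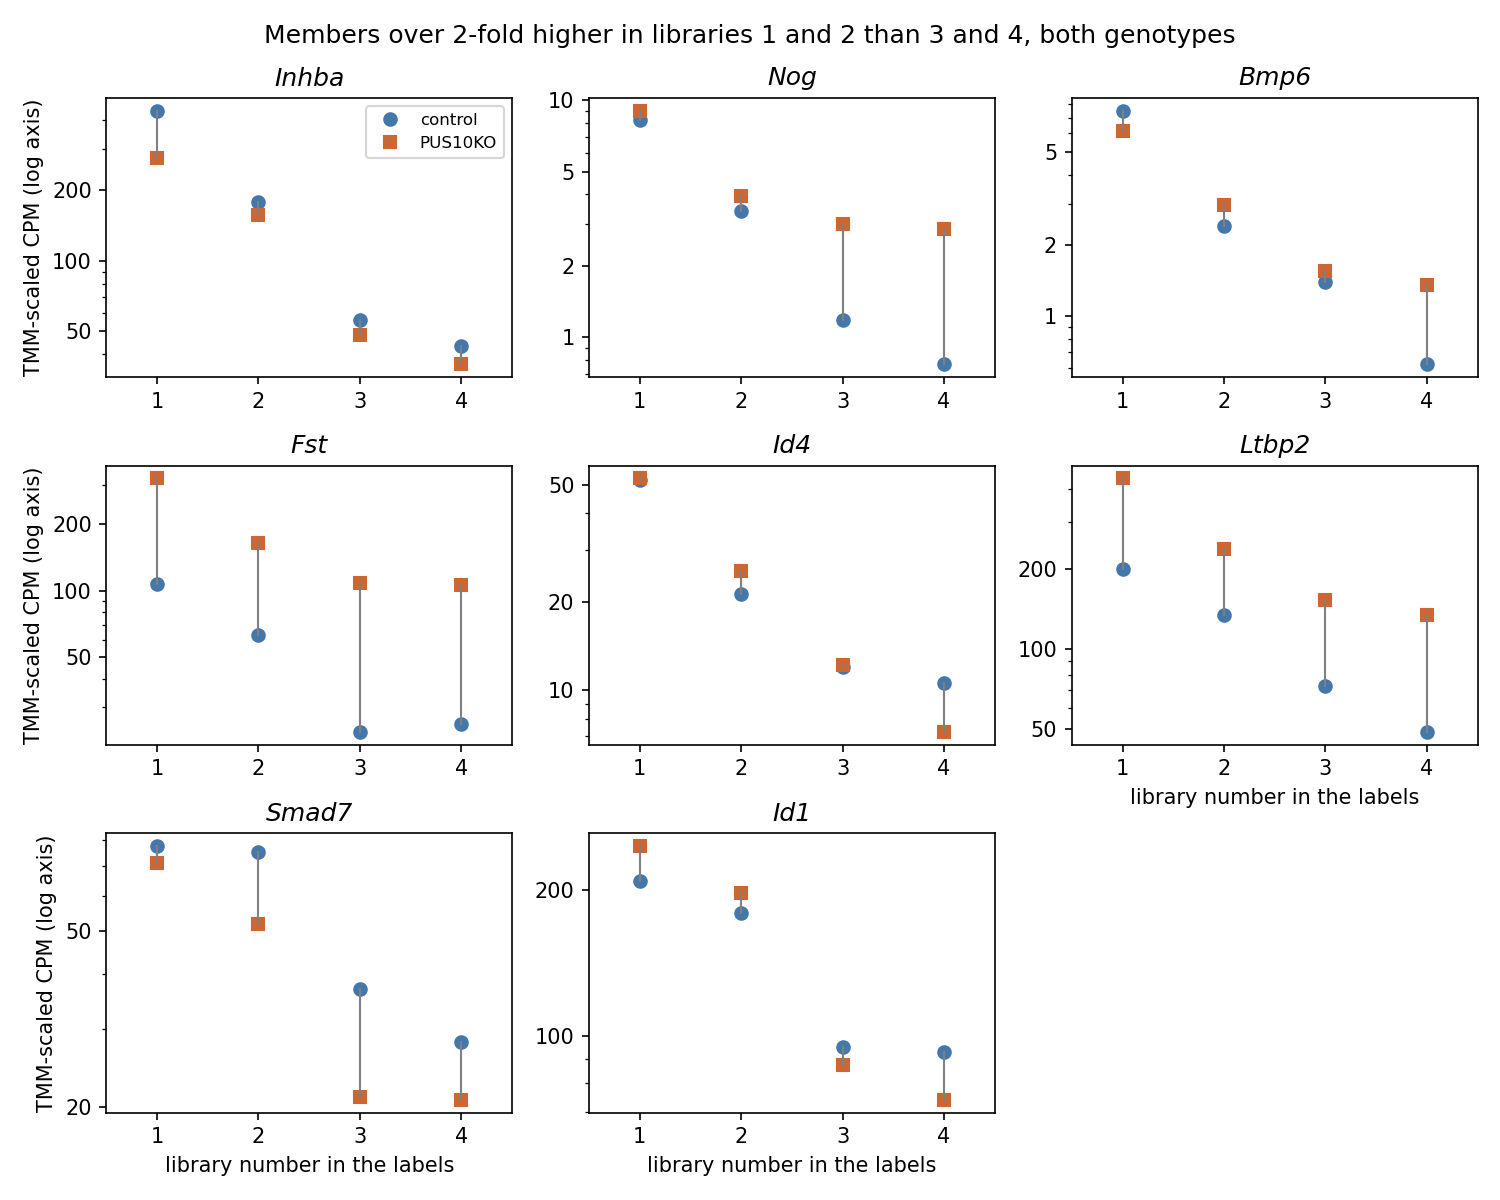
TMM-scaled CPM (log axis) by library number for 8 members more than 2-fold higher in libraries 1 and 2 than in 3 and 4 in both genotypes, with control as blue circles, PUS10KO as orange squares and a line joining the same number. Inhba and Id1 of both genotypes run together, while Fst and Ltbp2 stay higher in PUS10KO at every number.

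Levels were compared between genes as CPM per kilobase of merged exons. In control Tgfb3 was the highest ligand at 145 ± 138, with its libraries overlapping those of Inhba at 28.0 ± 28.7, which overlapped Bmp4 at 25.8 ± 1.94. Below these came Gdf11 (6.75 ± 0.82) and Tgfb2 (4.57 ± 1.19), and Tgfb1 stood at 1.28 ± 0.37. In PUS10KO the level of Tgfb3 was 27.4 ± 7.15 and that of Bmp4 7.90 ± 3.29. Among the antagonists Fstl1 (409.6 ± 80.1) stood above all others in control, and Fstl3 (14.3 ± 4.36) overlapped Fst (11.9 ± 8.70), and Grem1 stood at 2.70 ± 1.56. In PUS10KO these levels were 38.2 ± 22.2 for Fst, 19.3 ± 12.4 for Grem1 and 3.73 ± 1.38 for Fstl3. Among receptors Bmpr1a (30.4 ± 3.71) was above the overlapping group of Tgfbr2 (11.8 ± 3.11), Acvr2a (9.62 ± 2.84) and Tgfbr1 (8.57 ± 1.49). Tgfbr3 went from 3.03 ± 0.42 to 10.4 ± 1.13. Acvrl1 was the lowest receptor in control, at 0.11 ± 0.054, and in PUS10KO stood at 0.59 ± 0.12. Smad4 (27.3 ± 3.67) was above the other signal-carrying Smads, of which Smad3, Smad5, Smad2 and Smad1 lay between 13.1 and 9.12 and Smad9 at 1.91.

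**Figure D4:**
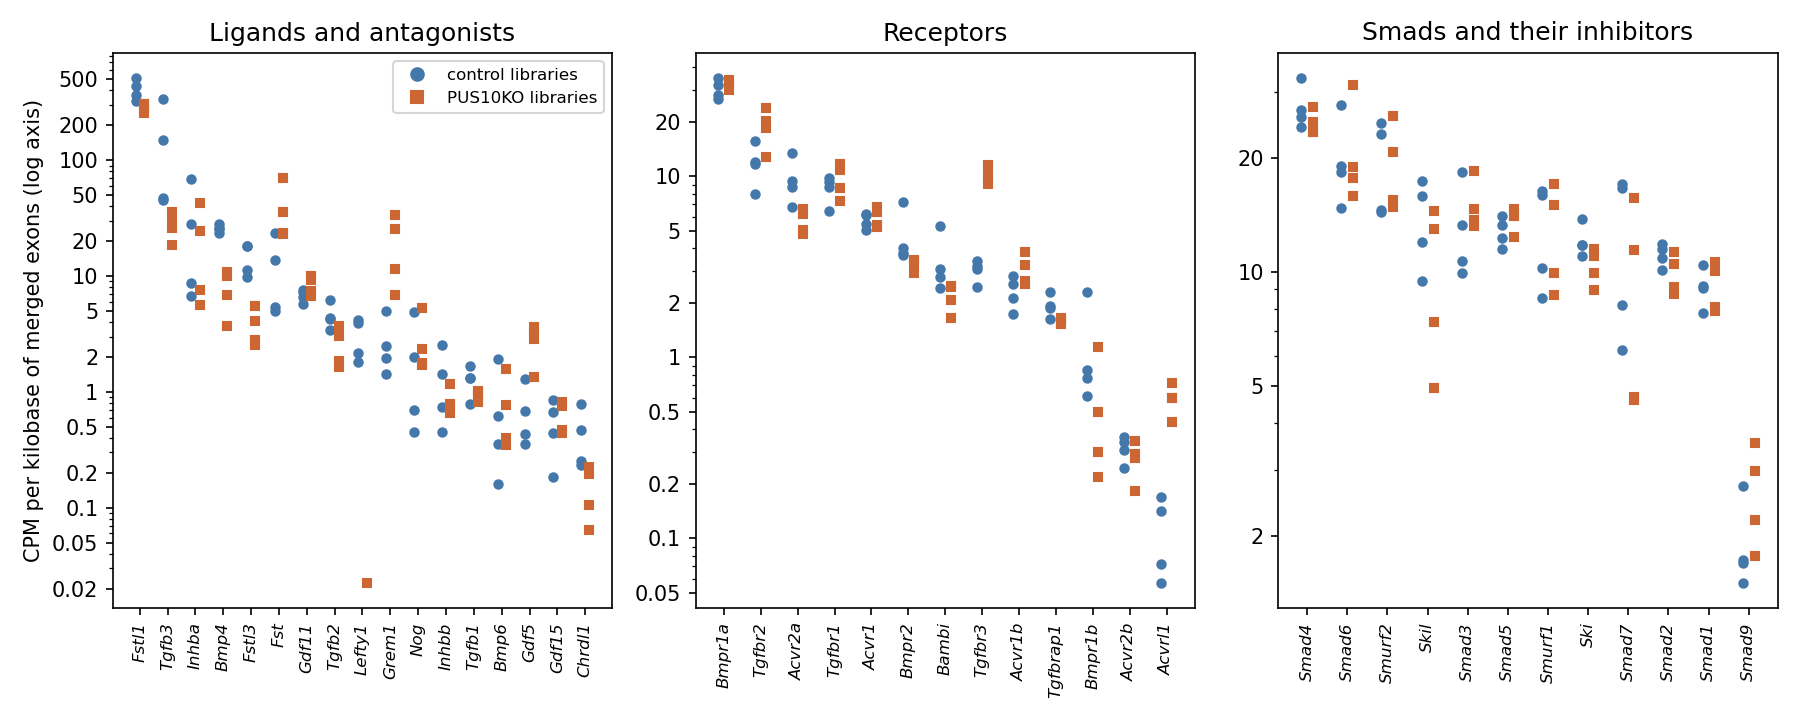
CPM per kilobase of merged exons (log axes) in each control (blue) and PUS10KO (orange) library, ordered by the control mean, for ligands and antagonists, receptors, and Smads with their inhibitors. The 3 PUS10KO libraries without a count of Lefty1 are not drawn. Grem1 and Tgfbr3 stand higher and Fstl3 lower in PUS10KO, while Fst has a higher mean there with overlapping values.

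Genes of the pathway outside the set were read from 3 lists. Of 42 tested partners (coreceptors, activators, adaptors and Smad regulators) 0 rose, 5 fell and 37 did not pass by edgeR, with a median log2 fold change of -0.25. The called partners were 11.9% of the list, close to the 13.0% of all genes tested. At an unadjusted p under 0.05 1 was higher and 10 were lower. DESeq2 called 1 rise and 8 falls, where 9.09% and 10.4% of all genes tested did so. Limma voom called 0 rises and 5 falls, where 5.87% and 6.84% did so. With the replicate block 2 rose and 16 fell, 42.9% of the list, where 39.0% of all genes tested were called. Neo1, the receptor for repulsive guidance molecules that also act as BMP coreceptors, had 145 ± 22.3 CPM in control and 68.2 ± 7.66 CPM in PUS10KO (log2 fold change -1.09, adjusted p = 0.00179). Tab2, an adaptor of the kinase TAK1, fell by 0.79 on the log2 scale (adjusted p = 0.0031), Nedd4l, a ubiquitin ligase of activated Smads, by 1.08 (adjusted p = 0.00402), and Ppm1a, a Smad phosphatase, by 0.67 (adjusted p = 0.00818). The remaining call was the corepressor gene Tgif1, a gene singled out once its values were known (-0.85, adjusted p = 0.0254). Tab2 and Ppm1a lie on chromosomes 10 and 12, whose medians were -0.25 and -0.60, and relative to these their log2 fold changes were -0.54 and -0.06.

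Of 28 tested genes known to respond to TGF-beta 1 rose, 3 fell and 24 did not pass, with a median log2 fold change of -0.30. The called genes were 14.3% of the list, close to the 13.0% of all genes tested. With the block 6 rose and 11 fell, 60.7% of the list, where 39.0% of all genes tested were called. Acta2, which encodes the smooth muscle actin of myofibroblasts, had 14070, 14958, 6166 and 4904 CPM in control and 2466, 2238, 2212 and 2077 CPM in PUS10KO. The PUS10KO libraries lay close together below all control libraries, which again divided into numbers 1 and 2 and numbers 3 and 4 (log2 fold change -2.16, adjusted p = 0.00528). Tagln, another contractile gene, went from 3368 ± 1798 to 733 ± 253 CPM (-2.20, adjusted p = 0.0102). Cnn1, a contractile gene of the same list named after its values were seen, had 16.3 ± 13.3 and 44.9 ± 12.1 CPM (1.46, adjusted p = 0.146, and 0.00597 under the block), and its values overlapped. The cyclin-dependent kinase inhibitor genes, both growth-arrest targets, moved apart: Cdkn2b went from 76.7 ± 32.6 to 8.56 ± 2.29 CPM (-3.16, adjusted p = 0.000756) and Cdkn1a from 50.5 ± 9.48 to 116 ± 25.0 CPM (1.19, adjusted p = 0.00464). Ccn2, a matricellular target named after its values were seen, had 2300.1 ± 2649 and 444 ± 546 CPM (-2.37, adjusted p = 0.258, and 1.46e-06 under the block).

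Of 6 tested genes known to respond to BMP, apart from the Id genes, 1 rose, 2 fell and 3 did not pass, with a median log2 fold change of 0.40. The called genes were 50% of this short list, against 13.0% of all genes tested. Msx1 passed the count filter only through its PUS10KO libraries and Msx2 only through its control libraries. The list was also chosen with earlier results of these data known, so this share is not read as a result. With the block 2 rose and 2 fell, 66.7% of the list, where 39.0% of all genes tested were called. The related homeobox genes Msx1 and Msx2 had opposite changes. Msx1 had 0 counts in every control library and 4.74, 4.53, 3.00 and 3.03 CPM in PUS10KO (adjusted p = 0.000615). Msx2 had 1.56, 0.77, 0.57 and 0.57 CPM in control and 0.39, 0.080, 0.042 and 0 CPM in PUS10KO, from 69 and 10 counts over the genotypes (log2 fold change -2.79, adjusted p = 0.0485, kept in 1 of 8 fits that dropped a library, the fit without PUS10KO 1, with adjusted p up to 0.130). Hey1, a repressor also driven by Notch, went from 2.98 ± 1.63 to 0.59 ± 0.16 CPM (-2.32, adjusted p = 0.012). No relation of these genes to the changes of Bmp4 and Grem1 was tested.

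Among the called members, the exons of Acvrl1, Fstl3, Tgfb3, Bmp4, Gdf5 and Acvr2a overlap an annotated gene on the opposite strand. Reads of such a pair cannot be told apart unless the counting used strand, which no source used here states. The exons of Tgfbr3 overlap the annotated gene Gm43422 on the same strand, and strand would not separate their reads. In the whole set 18 of 53 members have exons that overlap another annotated gene. Fst, Ltbp2, Tgfb2 and Bmpr1a are among those not called.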

How the data were processed

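RNA sequencing counts of 8 mouse embryonic fibroblast libraries (4 control, 4 PUS10KO, grouped by title) were used. Deposited values are raw read counts by gene symbol. Per the labels' protocols a stranded total RNA kit was used. STAR 2.7.8a, mm10 and DESeq2 appear in the submitters' processing notes. No source used here states the counter, its strand setting or the gene filter. A deposited normalized table was not used.

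Genes passing filterByExpr (11909 of 12211) were scaled by TMM and tested in R 4.3.3 with edgeR 4.0.16 (quasi-likelihood, robust, genotype only), with Benjamini-Hochberg adjustment over all of them and a threshold of 0.05. SE was taken from the F statistic, and intervals are 95%. Log2 differences between libraries add 0.1 to the CPM. Positions and merged exon lengths came from GENCODE M21 (GRCm38), with 99.9% of rows matched. DESeq2 1.42.0 and limma 3.58.1 (voom), another scaling, no filter, a replicate block, each library left out and centring on the chromosome median were alternatives. The test was also run on simulated counts, which held no variation shared by same-numbered libraries, and no result here rests on that run. Promoter sequences are from RefSeq. Total counts were 17561114 to 24563499 per library, and precision also depended on the spread between libraries. Counting intervals cover counting error only.

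Library numbers were treated as pairs only in the block fit and in the differences by number, not in the main fit. The ground was that same-numbered libraries deviated together from their genotype's mean (Pearson r over genes 0.681, 0.722, 0.633 and 0.687). The highest r of PUS10KO 1 to 4 with a control of another number was 0.303, 0.0416, 0.582 and 0.503. For PUS10KO 3 this was close to the r with its own number. Genes are not independent replicates. The pairing comes from the counts, not the labels. The members and lists were chosen with earlier results of these data known. Named were every called member, a fixed set of central members (values of 1 member are not reported here), and up to 4 called genes of each other list by lowest p.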

Additional observations from a re-analysis of the deposited data

Results flagged for a closer look

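Of 106 groups of 4 libraries checked (53 members in each genotype), 2 had a library far from the others, where chance alone flags about 1 in 20 groups. Both were control 1. Bmpr2 had 130.0 CPM there, with the next control library at 72.6 CPM, and the gap was 0.90 of the range. Bmpr1b had 13.8 CPM there, with the next at 5.08 CPM and a gap of 0.86 of the range. Without control 1 the log2 fold change was -0.22 for Bmpr2 (-0.51 with all libraries) and -0.47 for Bmpr1b (-1.08 with all libraries). Bmpr1b also moved to -1.74 without PUS10KO 1, and neither gene was called in these fits.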

How the results depend on the processing

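Each of the 10 called members kept its direction in every alternative fit and after centring on its chromosome's median, and 6 (Tgfbr3, Lefty1, Acvrl1, Fstl3, Bmp4 and Grem1) kept their call in all fits that left out 1 library. With the replicate block the numbers that rose and fell were 8 and 17 for the members, 2 and 16 for the partners and 6 and 11 for TGF-beta targets, and 2 BMP targets rose. DESeq2 called 10 members that fell, 1 partner that rose and 8 that fell, and 2 TGF-beta targets that rose. Leaving out 1 library gave 3 to 5 members that rose and 3 to 6 that fell (3 without PUS10KO 3), 0 to 1 partners that rose (1 without PUS10KO 1 or 2) and 4 to 5 that fell, 1 and 3 to 4 TGF-beta targets, and 1 and 1 to 2 BMP targets; the cause was not tested. Reversals were limited to members that were not called. Id1 turned from 0.07 to -0.015 with the block and -0.018 with limma voom, and Id4 from 0.02 to -0.043 and -0.070. Among the 52 members with values given, leaving out 1 library turned the sign of Id1 (log2 fold change -0.27 to 0.32), Smad1 (-0.072 to 0.085), Smad6 (-0.19 to 0.27), Acvr1 (-0.0095 to 0.11), Gdf15 (-0.050 to 0.54), Inhba (-1.15 to 0.50), Nog (-0.058 to 1.42), Bmp6 (-0.59 to 1.04), Id4 (-0.68 to 0.75), Smurf1 (-0.19 to 0.14), Smurf2 (-0.17 to 0.16) and Bmp2k (-0.28 to 0.011). Depth limits Lefty1, Gdf15, Acvrl1, Msx1, Msx2 and Hey1, which had under 10 counts in at least 1 library.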

Other observations

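Within each library, ratios of levels per kilobase were read for related genes, chosen after their values had been seen and given without a test. The level of Fst relative to Fstl3 in numbers 1 to 4 was 1.30, 0.76, 0.45 and 0.55 for control, against 12.7, 8.80, 9.34 and 8.28 for PUS10KO. The activin-binding genes thus changed places, Fst being below Fstl3 in 3 of 4 control libraries and above it in every PUS10KO library. The level of Grem1 relative to Bmp4 was 0.21, 0.074, 0.098 and 0.050 in control and 4.91, 6.77, 1.15 and 0.62 in PUS10KO. The antagonist exceeded its ligand in PUS10KO libraries 1 to 3 only.

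Tgfb3 made up 97.7%, 96.4%, 90.5% and 90.3% of the summed level per kilobase of Tgfb1, Tgfb2 and Tgfb3 in control, and 92.6%, 87.5%, 86.7% and 86.7% in PUS10KO. The sum itself was 347, 156, 49.8 and 52.3 CPM per kilobase in control and 38.6, 21.2, 29.9 and 33.8 in PUS10KO. Messenger of the TGF-beta isoforms was therefore mostly Tgfb3 in all 8 libraries.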
